A study of Mus musculus with 162 samples.

Results

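The neurotrophic factors and receptors described here are 8 genes chosen by name: the secreted ligands Bdnf, Ntf3, Gdnf and Artn, and the receptors Ntrk2, Ntrk3, Ret and Gfra3. All 8 were found by Ensembl identifier among the 46078 genes of the count files. RNA sequencing was carried out on cheek skin, on the trigeminal ganglion (TG) of the same side, which houses the sensory neurons of the cheek, and on spinal cord of adult male C57BL/6 mice. MC903 at 0.2 mM, a vitamin D analog that produces an itching dermatitis, or its ethanol vehicle was applied every day.

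Wild-type uninjected mice were sampled at Day_1, hours after the first application, and at Day_2, Day_5 and Day_8. At Day_8 other wild-type mice had also received PBS or 250 µg of anti-Gr1, an antibody that depletes neutrophils, by intraperitoneal injection. TSLPR.KO mice carry the Crlf2tm1Jni allele and lack the receptor for the epithelial cytokine TSLP, and were sampled at Day_8 and Day_12. BLT1.KO mice, for which the labels name no allele, lack the leukotriene B4 receptor BLT1 and were sampled in skin at Day_8. In each comparison both groups shared genotype, injection and day and differed in MC903 or ethanol. Spinal cord came from wild-type mice treated on the rostral back and not on the cheek, all at Day_8.

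Skin comparisons held 4 ethanol and 4 MC903 libraries at Day_1, 2 and 2 at Day_2, 3 and 3 at Day_5, 6 and 5 at Day_8, 3 and 2 with PBS, 4 and 4 with anti-Gr1, 2 and 3 in TSLPR.KO at Day_8, 3 and 3 in BLT1.KO, and 3 and 4 in TSLPR.KO at Day_12. The TG comparisons held 4 and 4, 2 and 3, 3 and 3, 5 and 5, 3 and 4 with PBS, 4 and 4 with anti-Gr1, 2 and 2 in TSLPR.KO at Day_8, and 4 and 4 in TSLPR.KO at Day_12. Cord comparisons held 5 and 4 libraries without injection, 2 and 2 with PBS, and 6 and 8 with anti-Gr1. The labels do not tie libraries to animals, so a p-value measures only the spread between these libraries.

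Neurotrophins signal through the Trk receptor tyrosine kinases: BDNF, the product of Bdnf, binds TrkB (Ntrk2), and NT-3, the product of Ntf3, binds TrkC (Ntrk3). The GDNF family signals through the receptor tyrosine kinase Ret, which each ligand reaches through a GPI-linked co-receptor, GFRα3 (Gfra3) in the case of artemin (Artn). Skin is a classical source of these ligands, and sensory neurons carry the receptors. Peptidergic nociceptors also make BDNF and release it from their central terminals onto neurons of the dorsal horn. Full-length TrkB is found in neurons, while a truncated TrkB without the kinase is abundant in glia and in many non-neuronal cells, and gene counts do not separate these forms.

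The promoter windows of Artn and Bdnf are shown because these were the ligands that MC903 raised in skin and in the TG, respectively. Both are the 250 bases before an annotated start, taken from RefSeq (GRCm38.p6). The first lies at chr4:117929764-117930013 on the minus strand upstream of Artn, with capitals marking TGAACC, the reverse complement of the vitamin D receptor half-site GGTTCA, 162 to 157 bases before the start.
Artn: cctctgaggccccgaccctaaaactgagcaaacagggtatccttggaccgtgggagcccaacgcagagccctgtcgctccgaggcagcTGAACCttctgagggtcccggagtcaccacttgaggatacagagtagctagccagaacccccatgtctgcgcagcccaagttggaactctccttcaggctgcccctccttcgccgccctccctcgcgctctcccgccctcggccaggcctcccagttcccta
The second lies at chr2:109692186-109692435 on the plus strand, before 1 of the 7 annotated starts of Bdnf, with capitals marking TCACGTCA, a cAMP response element variant through which neuronal activity is known to drive Bdnf, 38 to 31 bases before the start.
Bdnf: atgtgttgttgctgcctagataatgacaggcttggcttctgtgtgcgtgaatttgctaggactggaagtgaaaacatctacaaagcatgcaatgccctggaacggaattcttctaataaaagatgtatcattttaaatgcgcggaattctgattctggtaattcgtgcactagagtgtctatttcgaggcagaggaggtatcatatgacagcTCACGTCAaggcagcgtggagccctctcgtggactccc
The letters were searched on both strands in 32851 mouse windows of 250 bases. Of these windows, 14.02% held the half-site AGGTCA, 11.65% held GGGTCA, 8.85% held GGTTCA and 11.84% held AGTTCA, while 1.55% held the cAMP response element TGACGTCA and 0.35% its variant TCACGTCA, and none of these motifs contains another. Other windows of Bdnf held AGGTCA (1 window) and, together in 1 window, GGGTCA and AGTTCA, and 1 of the 2 windows of Gdnf held AGGTCA. No searched motif was found in the 2 windows of Ntf3 or the 1 window of Ntrk2, and windows of Ntrk3, Ret and Gfra3 were not used here. A match of letters is a description and not a binding site.

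Of 162 libraries, 143 were used (60 skin, 56 TG, 27 cord), with 15931871 to 67342879 gene counts each. The 18 wild-type Day_12 libraries were left out because many of their tissue labels went against the tissue markers. In those labelled TG, the basal keratinocyte keratin Krt5 was 0.139 to 3528 cpm (counts scaled to a common library total), with a median of 2307. In those labelled skin, the neuronal tubulin Tubb3 was 3.68 to 2054 cpm, with a median of 1938. Both ranges reach levels of the labelled tissue, so not every label went against the markers. The Day_2 skin library labelled MC903 replicate 3 was left out because it carried markers of both tissues. Its Tubb3 was 228 cpm, against 0.163 to 75.5 cpm in the skin libraries used. Its Krt5 was 417.6 cpm, against 724 to 4819 cpm in the skin libraries used and 0 to 61.4 cpm in the TG libraries used. Crlf2, the gene targeted in TSLPR.KO, stood at 0.0665 to 0.284 cpm in TSLPR.KO skin at Day_8 and at 0.469 to 1.24 cpm at Day_12, below the 2.27 to 14.2 cpm of the other skin groups. In the TG it stood at 0 to 0.228 cpm in TSLPR.KO at Day_8, but at 0.901 to 2.0 cpm in TSLPR.KO at Day_12, which overlaps wild-type TG at Day_5 (1.19 to 2.50 cpm). Crlf2 was also low, at 0.118 cpm, in the wild-type Day_8 TG library labelled ethanol cohort B replicate 2. Ltb4r1, which encodes BLT1, was detected in every BLT1.KO library at 2.33 to 15.3 cpm, so its RNA level does not check that label. Cyp24a1, a vitamin D target, was 7.01 to 9.61 higher on the log2 scale in MC903 skin in all 9 skin comparisons.

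On GRCm38 the ligand genes are Bdnf on chromosome 2 from 109674700 to 109727007 (plus strand), Ntf3 on chromosome 6 from 126101412 to 126166910 (minus strand), Gdnf on chromosome 15 from 7810846 to 7837575 (plus strand) and Artn on chromosome 4 from 117926162 to 117929763 (minus strand). The receptor genes include Ntrk2 on chromosome 13 from 58806569 to 59133970 (plus strand), Ntrk3 on chromosome 7 from 78175959 to 78738012 (minus strand) and Ret on chromosome 6 from 118151745 to 118197718 (minus strand). The files count reads per gene and do not separate exons or untranslated regions.

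Levels in ethanol libraries, in cpm per kilobase of annotated exon, set the receptors apart between tissues. In the TG the order of medians was Ret (98.8), Gfra3 (29.3), Ntrk2 (14.7), Bdnf (4.11), Ntrk3 (2.37), Ntf3 (0.138), Gdnf (0.0519) and Artn (0.0398), over 27 libraries. Neighbours in that order had overlapping ranges except after Ret, Ntrk2 and Ntrk3, and the 3 lowest ligands had 0 counts in 3, 6 and 8 libraries, respectively. In cord the order was Ntrk2 (24.6), Ret (19.9), Ntrk3 (1.90), Bdnf (0.976), Artn (0.160), Gfra3 (0.156), Ntf3 (0.0967) and Gdnf (0.0859), over 13 libraries, with no overlap after Ret, Ntrk3 and Bdnf. Skin showed the narrowest spread, from Ntrk2 (3.68), Ret (2.84), Gfra3 (2.38) and Ntf3 (1.23) to Gdnf (0.480), Bdnf (0.319), Ntrk3 (0.241) and Artn (0.0920) over 30 libraries, and each range overlapped that of the next gene. The median of Artn was the lowest in ethanol skin and TG, though its range overlapped that of the next gene. These orders depend on the exon length, which merges all annotated forms (30170 bases for Ntrk3, 1997 for Gfra3). In cpm without division by length, the TG medians were Ret 668, Ntrk2 284, Ntrk3 71.5, Gfra3 58.5 and Bdnf 25.55.

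Where values are joined in pairs of groups, ethanol libraries come first. A lack of overlap between groups is a description and not a call. With few libraries per group it arises often by chance, and the share of all genes that separate was not counted. All changes are MC903 against ethanol from edgeR's quasi-likelihood test, with p adjusted by Benjamini-Hochberg over all genes tested and the thresholds of the study's methods, 0.05 in skin and cord and 0.1 in the TG. In wild-type uninjected skin, 2 of 8 members fell and 0 rose at Day_1, where 13% of all genes passed in either direction. At Day_5, 1 rose and 2 fell (all genes 14.9%), and at Day_8, 1 rose and 3 fell (all genes 23.4%). No member passed at Day_2 in edgeR, with 1 at an unadjusted p under 0.05 and 1 in DESeq2 (all genes 0.257%). Among the other skin groups, 1 member rose and 3 fell with anti-Gr1 (all genes 32.6%), 1 rose in TSLPR.KO at Day_8 (all genes 2.45%), 2 fell in BLT1.KO (all genes 28.6%), and 1 rose and 1 fell in TSLPR.KO at Day_12 (all genes 10%). With PBS no member passed in edgeR, 1 had an unadjusted p under 0.05, and 0 passed in DESeq2 (all genes 3.99%). The members' median log2 fold change was between -0.76 at Day_5 and -0.11 at Day_2 in the 9 skin comparisons, while that of all genes was between -0.04 and 0.00.

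In the TG, 1 member rose at Day_8 (all genes 0.16%), 1 rose and 1 fell with PBS (all genes 3.36%), 1 rose with anti-Gr1 (all genes 1.88%), and 1 rose in TSLPR.KO at Day_12 (all genes 0.304%). No member passed in edgeR at Day_1 (all genes 0%; 0 members at an unadjusted p under 0.05 and 0 in DESeq2) or at Day_2 (all genes 0%; 0 and 0). At Day_5 (all genes 0.00823%) 1 member had an unadjusted p under 0.05 and 1 passed in DESeq2, and in TSLPR.KO at Day_8 (all genes 0%) 1 had an unadjusted p under 0.05 and 0 passed in DESeq2. In cord, 1 member rose without injection (all genes 12.2%), 2 rose with anti-Gr1 (all genes 11.3%), and with PBS 0 passed in edgeR, 0 had an unadjusted p under 0.05 and 0 passed in DESeq2 (all genes 0%). In the map of the members' fold changes, skin shows a rising ligand above falling receptors, and the TG a rising Bdnf.

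**Figure D1:**
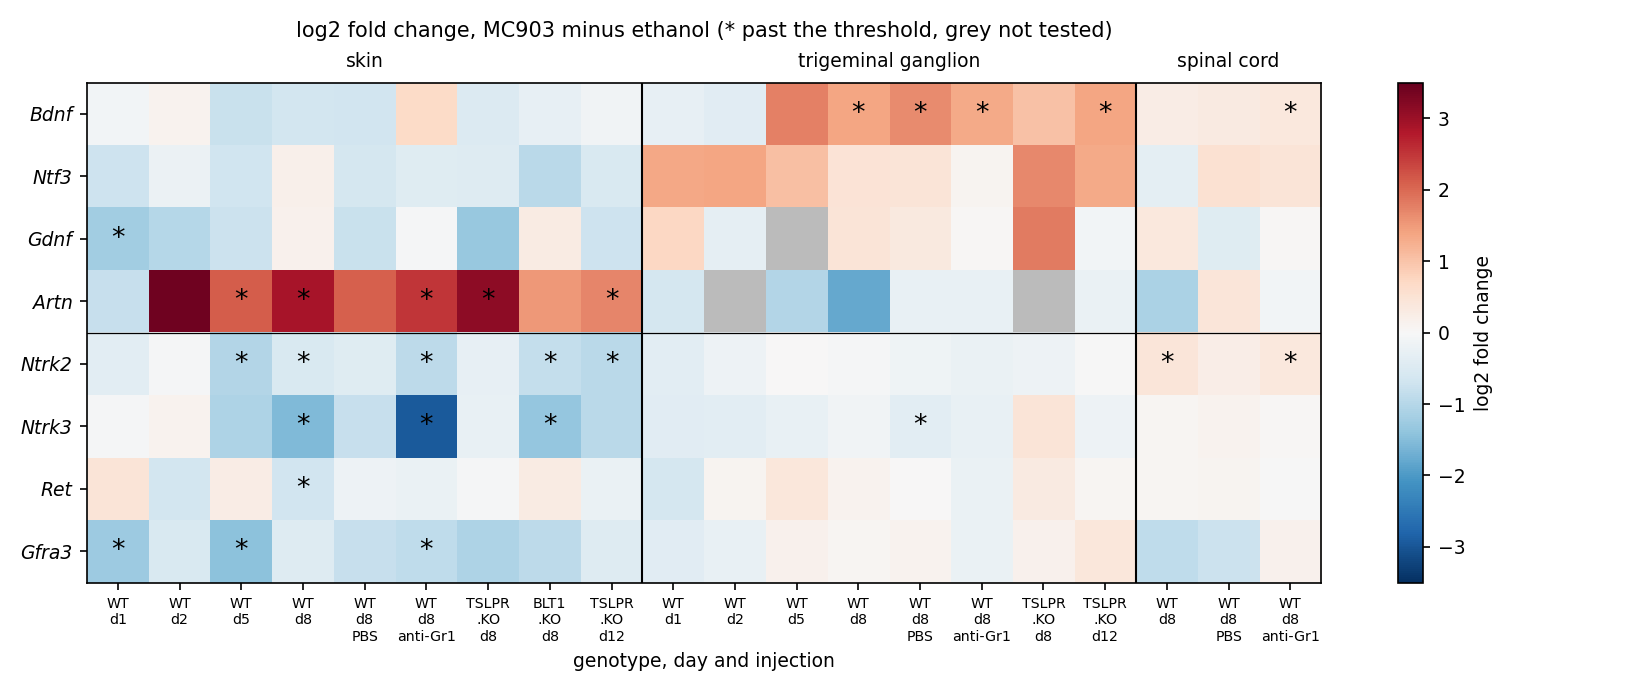
Log2 fold change (MC903 against ethanol) of the 8 members (1 line each) in the 20 comparisons (columns, by tissue, genotype, injection and day); colour gives the fold change, an asterisk marks an adjusted p past the threshold and grey marks a gene that was not tested. Artn passed in 5 of 9 skin comparisons and Bdnf in 4 of 8 TG comparisons, all upward, while every receptor call in skin was downward.

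Artn, which encodes the GFRα3 ligand artemin, rose in MC903 skin at Day_5, at Day_8, with anti-Gr1 and in TSLPR.KO mice, by 3.28-fold to 8.81-fold. At Day_1 Artn stood at 0.325, 0.128, 0.383 and 0.309 cpm in ethanol and at 0.0536, 0.308, 0.117 and 0.161 cpm in MC903 skin, with overlapping groups (log2 fold change -0.80, SE 0.56, adjusted p = 0.372). At Day_2 the values were 0.305 and 0.0380 cpm in ethanol and 2.14 and 1.65 cpm in MC903 skin. Both MC903 libraries were above both ethanol libraries, but the difference did not pass (log2 fold change 3.39, SE 0.80, adjusted p = 0.285), although it did so in DESeq2 (adjusted p = 0.0131). At Day_5 Artn stood at 0.397, 0.295 and 0.141 cpm in ethanol and 1.58, 0.891 and 1.33 cpm in MC903 skin, a 4.37-fold rise (log2 fold change 2.13, SE 0.47, adjusted p = 0.0223). The groups did not overlap, and the call was lost without ethanol 2 (adjusted p = 0.0697), MC903 1 (0.0787) or MC903 3 (0.0554).

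At Day_8 the 6 ethanol libraries held Artn at 0.0518 to 0.453 cpm with a median of 0.140, and the 5 MC903 libraries at 0.824, 1.93, 1.11, 1.13 and 2.83 cpm, a 7.32-fold rise without overlap (log2 fold change 2.87, SE 0.51, adjusted p = 0.00158). Within the cohorts of the titles the log2 fold change of Artn was 2.69 (A, adjusted p = 0.0284) and 3.05 (B, adjusted p = 0.0243). The rise at Day_8 exceeded the change at Day_1 by 3.66 (SE 0.83, adjusted p = 0.00328), against 16% of all genes past the threshold in that contrast. It was 3.49 (adjusted p = 0.00965) with cohort A alone at Day_8 and 3.84 (adjusted p = 0.0136) with cohort B alone. The difference between Day_5 and Day_1 did not pass, at 2.93 (SE 0.93, adjusted p = 0.0525), where 7.87% of all genes did.

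With anti-Gr1, Artn stood at 0.0833, 0.237, 0.363 and 0.293 cpm in ethanol and 1.47, 1.11, 1.09 and 1.95 cpm in MC903 skin (log2 fold change 2.51, SE 0.40, adjusted p = 0.00161). In TSLPR.KO skin at Day_8 it stood at 0.166 and 0.177 cpm and 1.77, 1.14 and 1.74 cpm (log2 fold change 3.14, SE 0.57, adjusted p = 0.0211), and at Day_12 at 0.261, 0.281 and 0.273 cpm and 0.781, 0.929, 1.08 and 0.797 cpm (log2 fold change 1.71, SE 0.30, adjusted p = 0.00887). The MC903 libraries lay above ethanol libraries without overlap in all 3 of these comparisons. The Day_8 TSLPR.KO call was lost in 4 of 5 fits that left out a library, with adjusted p up to 0.109 without ethanol 1. BLT1.KO skin held Artn at 0.0741, 0.558 and 0.620 cpm in ethanol and 1.31, 1.13 and 1.098 cpm in MC903 libraries, again without overlap, and the difference did not pass (log2 fold change 1.51, SE 0.68, adjusted p = 0.137). PBS-injected skin held 0.137, 0.549 and 0.274 cpm and 1.80 and 0.959 cpm, also without overlap (log2 fold change 2.10, SE 0.60, adjusted p = 0.129), and passed without ethanol 2 (2.73, adjusted p = 0.0307). Across the 9 skin comparisons, MC903 libraries lay above ethanol libraries in 8, with Day_1 the exception. How many of all genes separate in the same comparisons was not counted.

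**Figure D2:**
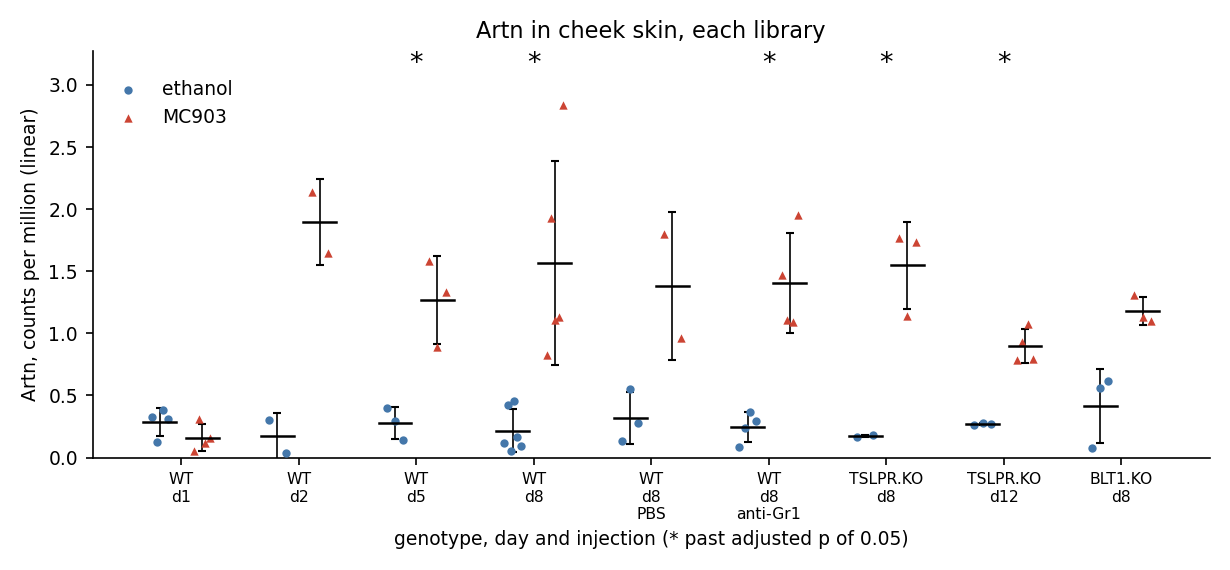
Artn in skin in cpm (linear axis from 0) by comparison, with ethanol libraries as blue circles and MC903 libraries as red triangles; lines give group means, bars the SD, and asterisks calls past the threshold. At Day_1 the groups overlap, and from Day_2 on every MC903 group lies above its ethanol group, with the highest library at 2.83 cpm at Day_8.

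The rise of Artn rested on small counts, 1 to 29 per ethanol library and 23 to 91 per MC903 library from Day_2 on. Summed cpm of the keratinocyte markers was 6255 to 8071 cpm in ethanol and 12150 to 23180 cpm in MC903 libraries at Day_8 and 6792 to 9109 cpm in ethanol and 13260 to 18710 cpm in MC903 libraries at Day_5 (2 higher and 2 lower of 6 passed at Day_8). The neutrophil markers moved as well, from 7.27 to 13.2 cpm in ethanol and 27.4 to 69.5 cpm in MC903 libraries at Day_8 (4 higher and 0 lower of 5 passed), and were still 4.22 to 9.65 cpm in ethanol and 33.2 to 38.4 cpm in MC903 libraries with anti-Gr1. The part of these cells in the rise of Artn was not tested. In bulk tissue, fewer cells of a type and less RNA per cell cannot be told apart.

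Outside skin Artn was near the floor of detection. TG libraries held 0 to 0.273 cpm and Artn passed in none of the 6 TG comparisons in which it was tested. In uninjected cord Artn stood at 1.68, 0.308, 0.275, 0.376 and 0.374 cpm in ethanol and 0.0753, 0.595, 0.230 and 0.168 cpm in MC903 libraries. The first ethanol library was apart from the rest, and without it the log2 fold change went from -1.11 to -0.24.

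Gdnf, the founding ligand of its family, fell in skin at Day_1. It stood at 1.67, 2.65, 2.21 and 1.91 cpm in ethanol and 0.750, 1.39, 0.584 and 0.884 cpm in MC903 libraries (log2 fold change -1.22, SE 0.28, adjusted p = 0.0234). The groups did not overlap, but the call was lost in 5 of 8 fits that left out a library (MC903 1, 3 or 4, ethanol 2 or 3), with adjusted p up to 0.0714. The log2 fold change of Gdnf was -1.01 at Day_2, -0.75 at Day_5, -0.78 with PBS and -0.73 in TSLPR.KO at Day_12, each with MC903 libraries below ethanol libraries and none past the threshold. At Day_8 without injection the groups overlapped, at 0.594 to 1.87 cpm with a median of 1.07 in ethanol and 1.19, 1.31, 1.60, 0.754 and 0.935 cpm in MC903 skin (log2 fold change 0.16, SE 0.35, adjusted p = 0.785). The cohorts lay on opposite sides of 0, at 0.91 in A (adjusted p = 0.0913) and -0.85 in B (adjusted p = 0.287). The Day_8 effect was above the Day_1 effect by 1.37 (SE 0.46, adjusted p = 0.0411), which rested on cohort A: the difference was 2.12 (adjusted p = 0.00145) with cohort A alone at Day_8 and 0.36 (adjusted p = 0.709) with cohort B alone. Dermal fibroblast markers also stood lower in MC903 skin at Day_1, at 9059 to 18650 cpm in ethanol and 5446 to 8715 cpm in MC903 libraries (0 higher and 4 lower of 5 passed), and reads in no gene were 7.57 to 12.25% in ethanol and 12.6 to 14.64% in MC903 libraries of Day_1 skin. The part of either in the Day_1 calls of Gdnf and Gfra3 was not tested. In the TG Gdnf lay between 0 and 0.607 cpm, and no call was made there or in cord.

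Bdnf, the TrkB ligand, rose in the TG at Day_8 in uninjected, PBS-injected and anti-Gr1-injected wild-type mice and at Day_12 in TSLPR.KO mice, by 2.50-fold to 3.13-fold. Early on there was no separation: at Day_1 Bdnf stood at 25.8, 25.3, 26.4 and 26.6 cpm in ethanol and 20.3, 14.6, 22.6 and 27.9 cpm in MC903 ganglia (log2 fold change -0.29, SE 0.18, adjusted p = 0.575). At Day_2 it stood at 55.4 and 27.1 cpm and 28.3, 25.8 and 39.99 cpm (log2 fold change -0.39, SE 0.30, adjusted p = 0.744). The Day_2 value turned on ethanol 2, without which it was -0.82 (adjusted p = 0.0409, with a lone ethanol library).

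At Day_5 Bdnf stood at 36.2, 21.005 and 21.4 cpm in ethanol and 119.3, 74.7 and 71.2 cpm in MC903 ganglia, a 3.37-fold difference without overlap (log2 fold change 1.75, SE 0.27, adjusted p = 0.265). The labels do not say that equal replicate numbers mark pairs. Deviations of same-numbered libraries correlated at 0.168 to 0.371 here, and those of other numbers at -0.326 to 0.201. With the number as a block the same log2 fold change (1.76) passed the threshold (adjusted p = 0.00177). It also passed in DESeq2 (adjusted p = 4.59e-06), in a fit over Day_1 to Day_8 (adjusted p = 0.0187), and without ethanol 1 (adjusted p = 0.0574). The Day_5 effect exceeded that of Day_1 by 2.01 (SE 0.36, adjusted p = 0.0659), where 0.021% of all genes passed.

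At Day_8 Bdnf stood at 19.1, 25.4, 29.96, 32.7 and 30.3 cpm in ethanol and 63.7, 87.7, 52.3, 81.2 and 68.8 cpm in MC903 ganglia (log2 fold change 1.38, SE 0.16, adjusted p = 0.00259). The groups did not overlap. Bdnf was up by 1.76 in cohort A (adjusted p = 0.0104) and by 1.12 in cohort B, where it did not pass alone (adjusted p = 0.166), and by 1.43 without the ethanol library that was low in Crlf2 (adjusted p = 0.000934). The Day_8 effect differed from that of Day_1 by 1.66 (SE 0.31, adjusted p = 0.111), which did not pass (0.00701% of all genes did).

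With PBS, Bdnf stood at 17.4, 22.7 and 23.96 cpm in ethanol and 65.5, 56.6, 83.98 and 63.5 cpm in MC903 ganglia (log2 fold change 1.65, SE 0.13, adjusted p = 4.73e-05). With anti-Gr1 it stood at 38.9, 20.7, 42.8 and 36.7 cpm and 77.8, 51.8, 100.4 and 117.02 cpm (log2 fold change 1.32, SE 0.24, adjusted p = 0.0148). In both, every MC903 library was above every ethanol library. TSLPR.KO ganglia at Day_8 held Bdnf at 25.5 and 26.003 cpm and 36.5 and 68.7 cpm, also without overlap but not past the threshold (log2 fold change 1.03, SE 0.29, adjusted p = 0.601). Without MC903 1, a library with an outlying share of ambiguous reads, it was 1.42 (adjusted p = 0.215). At Day_12 the ganglia labelled TSLPR.KO, whose Crlf2 overlapped wild-type TG, held 25.8, 24.1, 22.03 and 20.8 cpm and 49.2, 72.6, 73.1 and 47.1 cpm (log2 fold change 1.38, SE 0.15, adjusted p = 0.00221). MC903 libraries lay above ethanol libraries in 6 of 8 TG comparisons, all but Day_1 and Day_2 (share of all genes that separate not counted).

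**Figure D3:**
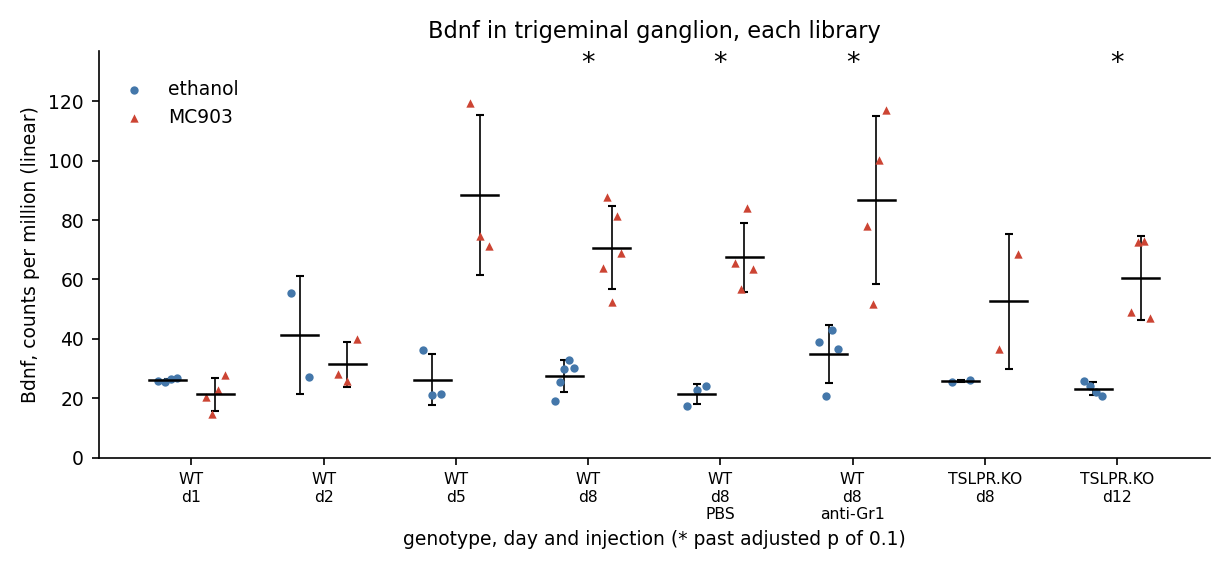
Bdnf in the TG in cpm (linear axis from 0) by comparison, with ethanol libraries as blue circles and MC903 libraries as red triangles; lines give group means, bars the SD, and asterisks calls past the threshold. MC903 and ethanol libraries overlap at Day_1 and Day_2 and separate from Day_5 on, with the highest library at 119.3 cpm at Day_5.

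Markers of peptidergic nociceptors, the neurons that also make BDNF, were higher in MC903 ganglia in some of these comparisons and overlapped at Day_8 without injection. Their summed level was 773 to 832 cpm in ethanol and 979.5 to 1214 cpm in MC903 libraries with PBS (3 higher and 0 lower of 4 passed) and 794 to 904 cpm in ethanol and 1142 to 1329 cpm in MC903 libraries in TSLPR.KO at Day_12 (3 higher and 0 lower of 4 passed). At Day_5 it was 918 to 1082 cpm in ethanol and 1148 to 1331 cpm in MC903 libraries, and at Day_8 without injection the groups overlapped, at 1064 to 1212 cpm in ethanol and 1166 to 1541 cpm in MC903 libraries. The 8 general sensory neuron markers overlapped at Day_8, at 4619 to 6139 cpm in ethanol and 5788 to 7851 cpm in MC903 libraries, but not at Day_5, at 4332 to 5000 cpm in ethanol and 5186 to 6075 cpm in MC903 libraries. Reads in no gene were 11.48 to 11.78% in ethanol and 6.15 to 11.35% in MC903 ganglia of TSLPR.KO at Day_12. The part of these markers and of this share in the rise of Bdnf was not tested.

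The Day_1 TG libraries labelled MC903 1 and 2 held less neuronal RNA than the rest, with sensory neuron markers at 4772 to 5735 cpm in ethanol and 2349 to 5809 cpm in MC903 libraries. Without both, the Day_1 log2 fold change of Bdnf was -0.04, that of Ret -0.01, that of Gfra3 0.11 and that of Ntrk3 -0.10, in place of -0.29, -0.60, -0.38 and -0.38 with all 8 libraries.

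In skin Bdnf passed in none of the 9 comparisons, and ethanol and MC903 libraries overlapped in each, with log2 fold changes from -0.77 at Day_5 to 0.68 with anti-Gr1. Without ethanol 3 the Day_5 difference was -0.98 (adjusted p = 0.0456), and without the ethanol library skin6 that of Day_8 was -0.84 (adjusted p = 0.0323). In cord with anti-Gr1, Bdnf rose slightly, from 4.02 to 6.11 cpm with a median of 5.34 in 6 ethanol libraries to 5.46 to 8.13 cpm with a median of 6.60 in 8 MC903 libraries, with overlap (log2 fold change 0.38, SE 0.10, adjusted p = 0.0229). That call was lost without ethanol 1 (adjusted p = 0.0695) or ethanol 3 (0.0682). Cord Bdnf did not pass without injection (log2 fold change 0.27, SE 0.18, adjusted p = 0.405) or with PBS (log2 fold change 0.31, SE 0.25, adjusted p = 0.853).

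Ntf3, the TrkC ligand, passed in none of the 20 comparisons. Its skin log2 fold change was between -0.94 in BLT1.KO (adjusted p = 0.0939) and 0.19. At Day_5 Ntf3 stood at 3.08, 3.502 and 2.31 cpm in ethanol and 2.04, 1.71 and 1.79 cpm in MC903 skin, without overlap (log2 fold change -0.69, SE 0.27, adjusted p = 0.135). The BLT1.KO difference passed without MC903 1 (-1.30, adjusted p = 0.0420), and that of TSLPR.KO at Day_12 without MC903 3 (-0.90, adjusted p = 0.0334). TG libraries held Ntf3 at 0 to 1.54 cpm.

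Among the receptors, Ntrk2, which encodes TrkB, fell in skin in 5 comparisons. At Day_5 it stood at 77.8, 81.7 and 98.1 cpm in ethanol and 48.6, 41.3 and 37.7 cpm in MC903 skin, without overlap (log2 fold change -1.01, SE 0.17, adjusted p = 0.00808). The same separation held in BLT1.KO, at 122.9, 94.4 and 84.6 cpm and 64.7, 55.3 and 49.5 cpm (log2 fold change -0.83, SE 0.17, adjusted p = 0.00686), and in TSLPR.KO at Day_12, at 62.1, 52.5 and 41.8 cpm and 24.5, 31.2, 25.6 and 27.8 cpm (log2 fold change -0.93, SE 0.17, adjusted p = 0.00896). The Day_5 call was lost without MC903 2 (adjusted p = 0.0515). In the following 2 comparisons Ntrk2 passed but the groups overlapped. At Day_8 the ethanol libraries held 49.5 to 88.8 cpm with a median of 66.5 and the MC903 libraries 27.9, 44.7, 53.5, 46.6 and 51.5 cpm (log2 fold change -0.54, SE 0.16, adjusted p = 0.0266). With anti-Gr1 Ntrk2 stood at 92.2, 97.9, 48.5 and 56.8 cpm in ethanol and 40.2, 52.01, 38.0 and 26.7 cpm in MC903 skin (log2 fold change -0.91, SE 0.27, adjusted p = 0.0278).

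Those 2 calls of Ntrk2 rested on individual libraries. At Day_8 it was lost in 4 of 11 fits that left out a library (ethanol skin3 or cohort B 1, MC903 cohort B 1 or 2), with adjusted p up to 0.0689. With anti-Gr1 it was lost in 5 of 8 (MC903 1, 3 or 4, ethanol 1 or 2), with adjusted p up to 0.0733. Within cohorts the Day_8 log2 fold change of Ntrk2 was -0.47 in A (adjusted p = 0.218) and -0.66 in B (adjusted p = 0.0411). At Day_1 Ntrk2 did not pass (log2 fold change -0.36, SE 0.13, adjusted p = 0.0869), and did so without ethanol 1 (adjusted p = 0.00643). At Day_2 the values were close, 58.5 and 56.6 cpm in ethanol and 53.6 and 59.2 cpm in MC903 skin (log2 fold change -0.03, SE 0.21, adjusted p = 0.974). The log2 fold change was -0.29 in TSLPR.KO at Day_8 (adjusted p = 0.658) and -0.43 with PBS (adjusted p = 0.502).

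Ntrk3, which encodes TrkC, fell in skin at Day_8, with anti-Gr1 and in BLT1.KO, to between 0.131 and 0.395 of its ethanol level. At Day_8 the ethanol libraries held 8.73 to 12.8 cpm with a median of 10.5 and the MC903 libraries 1.95, 2.59, 3.06, 7.02 and 4.14 cpm, without overlap (log2 fold change -1.55, SE 0.23, adjusted p = 0.000451). With anti-Gr1 Ntrk3 stood at 15.1, 5.70, 2.30 and 4.40 cpm in ethanol and 1.35, 0.485, 0.438 and 1.33 cpm in MC903 skin, without overlap (log2 fold change -2.93, SE 0.63, adjusted p = 0.00720). BLT1.KO skin held 7.10, 3.49 and 6.37 cpm and 2.59, 2.22 and 1.88 cpm, also without overlap (log2 fold change -1.34, SE 0.31, adjusted p = 0.0124), and lost the call without MC903 3 (adjusted p = 0.0523). The Day_8 change was -2.002 in cohort A (adjusted p = 0.00122) and -1.04 in cohort B (adjusted p = 0.0530). TSLPR.KO skin at Day_8 showed overlap, at 7.91 and 10.9 cpm in ethanol and 9.32, 5.50 and 8.86 cpm in MC903 libraries (log2 fold change -0.25, SE 0.31, adjusted p = 0.765). At Day_12 TSLPR.KO skin held 1.33, 1.55 and 2.08 cpm and 0.761, 1.24, 0.622 and 0.797 cpm, without overlap (log2 fold change -0.94, SE 0.31, adjusted p = 0.0897), and the difference passed in DESeq2 (adjusted p = 0.0360).

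Earlier, Ntrk3 did not pass at Day_1 (log2 fold change -0.04, SE 0.12, adjusted p = 0.863) or Day_2 (log2 fold change 0.12, SE 0.36, adjusted p = 0.924). At Day_5 it stood at 5.31, 7.15 and 9.66 cpm and 1.24, 2.95 and 6.24 cpm, with overlap (log2 fold change -1.08, SE 0.52, adjusted p = 0.206). That difference passed in a fit over Day_1 to Day_8 (-1.09, adjusted p = 0.0368). With PBS the log2 fold change was -0.81, with overlap (adjusted p = 0.429). The Day_8 effect of Ntrk3 differed from that of Day_1 by -1.52 (SE 0.41, adjusted p = 0.0130), by -1.96 (adjusted p = 0.00490) with cohort A alone at Day_8 and by -1.01 (adjusted p = 0.278) with cohort B alone.

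Gfra3, the artemin co-receptor, fell in skin at Day_1, at Day_5 and with anti-Gr1, and its log2 fold change was below 0 in all 9 skin comparisons, from -1.43 to -0.44. At Day_1 Gfra3 stood at 5.57, 10.6, 11.7 and 10.6 cpm in ethanol and 3.64, 4.57, 3.21 and 4.50 cpm in MC903 skin, without overlap (log2 fold change -1.27, SE 0.23, adjusted p = 0.00921). At Day_5 the values were 6.51, 7.81 and 10.6 cpm and 2.41, 3.49 and 3.27 cpm, again without overlap (log2 fold change -1.43, SE 0.27, adjusted p = 0.0127). With anti-Gr1 they were 2.71, 3.61, 1.93 and 1.88 cpm and 1.74, 1.07, 1.71 and 0.933 cpm (log2 fold change -0.89, SE 0.30, adjusted p = 0.0460). MC903 libraries lay below ethanol libraries in 6 of the 9 comparisons, though the share of all genes that separate was not counted. The anti-Gr1 call was lost in 6 of 8 fits that left out a library (any MC903 library, ethanol 1 or 2), with adjusted p up to 0.132. The BLT1.KO difference (log2 fold change -0.91, SE 0.35, adjusted p = 0.0857) passed in DESeq2 (adjusted p = 0.0447) and without ethanol 1 (adjusted p = 0.0176).

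Ret, the signalling receptor of the GDNF family, passed in skin in edgeR at Day_8 and in none of the other 8 comparisons. There the ethanol libraries held 17.7 to 37.8 cpm with a median of 26.8 and the MC903 libraries 14.1, 12.501, 16.4, 22.4 and 19.7 cpm, with overlap (log2 fold change -0.68, SE 0.20, adjusted p = 0.0281). The change of Ret differed between cohorts, at -1.17 in A (adjusted p = 0.00387) and -0.11 in B (adjusted p = 0.812), and the call was lost in 5 of 11 fits that left out a library, each of cohort A (MC903 skin1, skin2 or skin4, ethanol skin6 or skin7), with adjusted p up to 0.0775. At Day_1 the direction was opposite: 34.3, 20.9, 23.8 and 22.7 cpm in ethanol and 35.03, 36.03, 36.1 and 32.3 cpm in MC903 skin, with overlap through ethanol 1 (log2 fold change 0.46, SE 0.15, adjusted p = 0.0647). It passed in DESeq2 (adjusted p = 0.0258). Without ethanol 1 the Day_1 difference was 0.63 (adjusted p = 0.00205). With all Day_1 libraries kept, the Day_8 effect differed from that of Day_1 by -1.14 (SE 0.29, adjusted p = 0.00812). That contrast was -1.62 (adjusted p = 0.000516) with cohort A alone at Day_8 and -0.57 (adjusted p = 0.315) with cohort B alone.

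**Figure D4:**
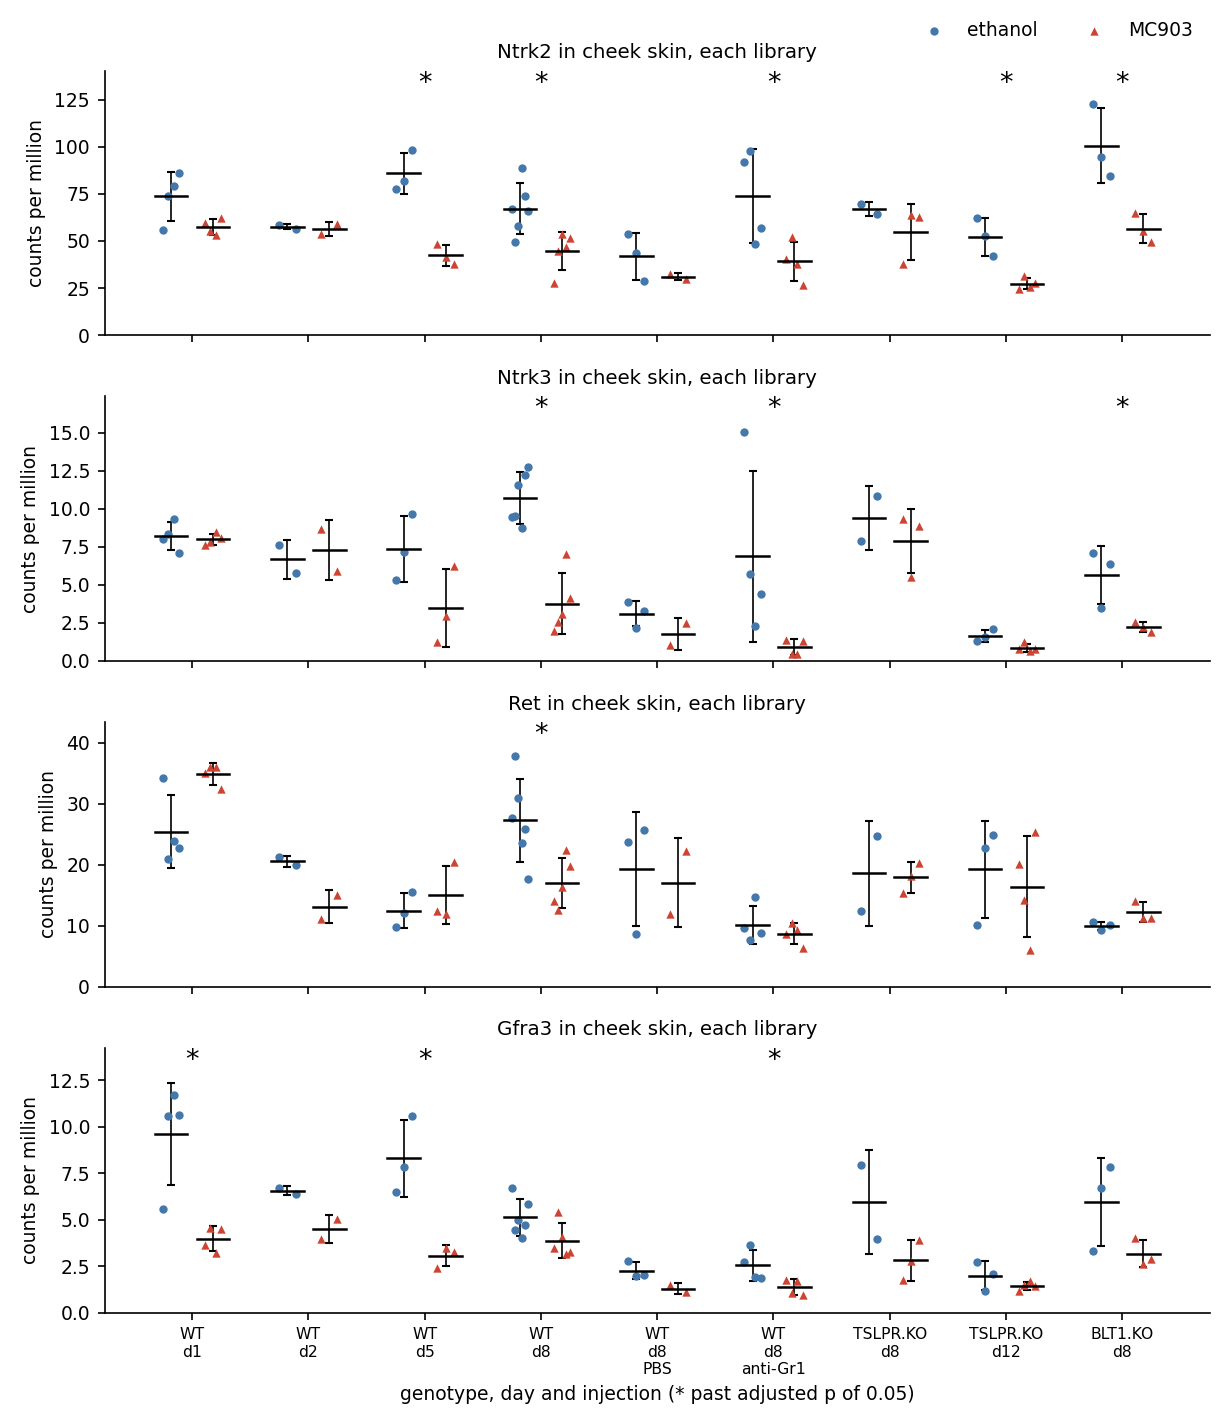
The receptors Ntrk2, Ntrk3, Ret and Gfra3 in skin in cpm (1 panel each, linear axes from 0) by comparison, with ethanol libraries as blue circles and MC903 libraries as red triangles; lines give group means, bars the SD, and asterisks calls past the threshold. Ntrk2 and Gfra3 separate at Day_5, and Ntrk3 separates at Day_8, with anti-Gr1, in BLT1.KO and in TSLPR.KO at Day_12.

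Several cell-type markers fell with these receptors in skin. The 7 Schwann cell markers summed to 338 to 447 cpm in ethanol and 226 to 323 cpm in MC903 libraries at Day_1 (0 higher and 4 lower of 7 passed), 278 to 492 cpm in ethanol and 232 to 311 cpm in MC903 libraries at Day_8 (0 higher and 2 lower of 7) and 499 to 558 cpm in ethanol and 262 to 315 cpm in MC903 libraries in BLT1.KO (0 higher and 6 lower of 7). With anti-Gr1 they overlapped, at 192 to 311 cpm in ethanol and 223 to 266 cpm in MC903 libraries. Dermal fibroblast markers were 9462 to 29160 cpm in ethanol and 5920 to 8665 cpm in MC903 libraries at Day_5 (0 higher and 2 lower of 5 passed). Markers of the growing hair follicle were 8493 to 20360 cpm in ethanol and 624 to 9233 cpm in MC903 libraries at Day_8 (0 higher and 6 lower of 7) and 102 to 4367 cpm in ethanol and 8.57 to 433 cpm in MC903 libraries with anti-Gr1 (0 higher and 5 lower of 7). Skeletal muscle markers were 3077 to 14400 cpm in ethanol and 1813 to 3553 cpm in MC903 libraries at Day_8 (0 higher and 5 lower of 5) and 18740 to 34180 cpm in ethanol and 3247 to 8225 cpm in MC903 libraries in BLT1.KO (0 higher and 5 lower of 5). Summed sensory neuron markers, in contrast, were 18.8 to 30.1 cpm in ethanol and 60.7 to 68.1 cpm in MC903 libraries at Day_5 and 6.87 to 26.03 cpm in ethanol and 75.5 to 83.99 cpm in MC903 libraries with anti-Gr1. Over all skin libraries used, Tubb3 alone ranged from 0.163 to 75.5 cpm, beside 6.87 to 83.99 cpm for this list. The neuronal gene Prph had a median of 0.372 cpm there. Whether a single gene carries the higher sum was not tested. The part of the cells named by these lists in the receptors' changes was not tested.

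In the TG, Ntrk3 was the only receptor to pass, in 1 of 8 comparisons. It fell with PBS, from 79.2, 61.7 and 63.1 cpm in ethanol to 54.2, 55.4, 52.4 and 49.8 cpm in MC903 ganglia, without overlap (log2 fold change -0.36, SE 0.08, adjusted p = 0.0372). That call was lost without MC903 3 (adjusted p = 0.113) or ethanol 1 (adjusted p = 0.118). Markers of mechanoreceptors and proprioceptors, the neurons that carry TrkC, overlapped there, at 2914 to 3027 cpm in ethanol and 2849 to 2972 cpm in MC903 libraries. Ntrk2 stood at 307, 306 and 295 cpm in ethanol and 267, 269, 277 and 282 cpm in MC903 ganglia with PBS, a small difference without overlap that did not pass (log2 fold change -0.14, SE 0.04, adjusted p = 0.125). It passed in DESeq2 (adjusted p = 0.0746) and without MC903 4 (adjusted p = 0.0150), among other alternatives. With anti-Gr1 Ntrk2 stood at 241, 264, 257 and 251 cpm and 215, 199, 224 and 218 cpm (log2 fold change -0.25, SE 0.08, adjusted p = 0.195; DESeq2 adjusted p = 0.0463).

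Gfra3 in the ganglia labelled TSLPR.KO at Day_12 stood at 47.5, 39.0, 43.4 and 35.7 cpm in ethanol and 65.7, 48.3, 49.1 and 56.8 cpm in MC903 libraries, above without overlap (log2 fold change 0.41, SE 0.12, adjusted p = 0.370). Deviations of same-numbered libraries correlated at 0.250 to 0.643 here, and those of other numbers at -0.515 to 0.326, though the labels mark no pairs. With the number as a block Gfra3 passed (0.41, adjusted p = 0.0522). Ret, the most abundant member in the TG, passed in none of its 8 comparisons, with log2 fold changes from -0.60 to 0.40. With PBS it stood at 911, 916 and 921 cpm in ethanol and 942, 893, 968 and 924 cpm in MC903 ganglia, and the 95% confidence interval of its log2 fold change was -0.06 to 0.11.

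Spinal cord Ntrk2 rose after treatment of the back. Without injection it stood at 478, 429.8, 418, 419 and 435 cpm in ethanol and 556, 571, 559.9 and 670.2 cpm in MC903 cord, without overlap (log2 fold change 0.44, SE 0.08, adjusted p = 0.00203). With anti-Gr1 the ethanol libraries held 455 to 515 cpm with a median of 481 and the MC903 libraries 589 to 656 cpm with a median of 613, again without overlap (log2 fold change 0.37, SE 0.04, adjusted p = 5.43e-06). With PBS the values were 503 and 496 cpm and 590.4 and 593 cpm, separate but not past the threshold (log2 fold change 0.25, SE 0.12, adjusted p = 0.834). Without ethanol 1, which stood apart from the other uninjected cord libraries in Artn, Gfra3 and Ntrk2, the uninjected difference was 0.47 (adjusted p = 0.000130). Ntrk3, Ret and Gfra3 passed in no cord comparison.

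Lists of glial markers also differed in cord, in both directions. Those of satellite glia and of Schwann cells had medians of 3140 and 22530 cpm in cord and 912.7 and 10020 cpm in the TG. In cord they are read as sums of genes and not as those cell types. The satellite glia list was 2727 to 2852 cpm in ethanol and 3392 to 3646 cpm in MC903 libraries without injection and 2751 to 3063 cpm in ethanol and 3140 to 3700 cpm in MC903 libraries with anti-Gr1, and the Schwann cell and myelin list 27020 to 32630 cpm in ethanol and 20430 to 25290 cpm in MC903 libraries and 21300 to 24500 cpm in ethanol and 16380 to 20030 cpm in MC903 libraries, respectively. The list of central glia and neurons was 2296 to 2684 cpm in ethanol and 1914 to 2114 cpm in MC903 libraries without injection (0 higher and 3 lower of 6 passed). With anti-Gr1 it overlapped, at 3122 to 3608 cpm in ethanol and 1942 to 3446 cpm in MC903 libraries. With PBS it was 2628 and 2741 cpm in ethanol and 2400 and 2195 cpm in MC903 libraries. Their part in the rise of Ntrk2 was not tested.

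**Figure D5:**
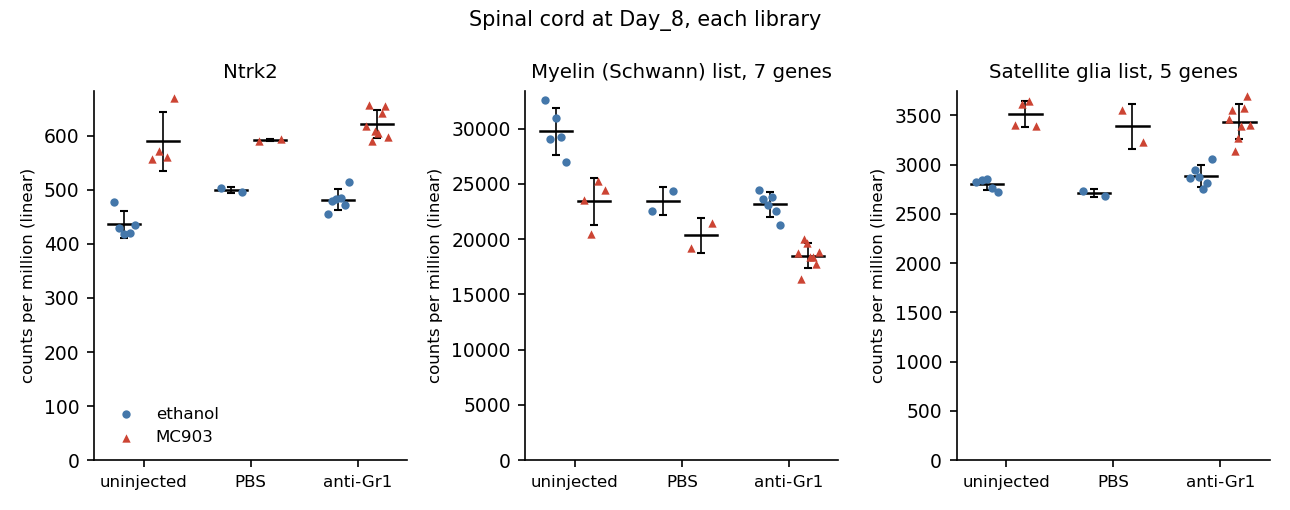
Ntrk2 (left) and the summed Schwann cell and myelin list (middle) and satellite glia list (right) in spinal cord at Day_8, in cpm (linear axes from 0). Groups are without injection, with PBS and with anti-Gr1, with ethanol libraries as blue circles and MC903 libraries as red triangles. Lines give group means and bars the SD, and calls are not marked. In all 3 comparisons MC903 libraries lie above ethanol libraries for Ntrk2 and the satellite glia list. For the Schwann cell and myelin list they lie below.

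Whether a group changed the response at Day_8 was tested as a difference of log2 fold changes from wild-type uninjected mice, so these tests share those wild-type libraries with the comparisons above. In skin, 1 of 8 members passed for BLT1.KO (all genes 6.95%): Ret, whose response was higher in BLT1.KO by 1.03 (95% confidence interval 0.40 to 1.65, adjusted p = 0.0469). BLT1.KO skin held Ret at 10.6, 9.25 and 10.1 cpm in ethanol and 14.1, 11.3 and 11.3 cpm in MC903 libraries. The call rested on cohort A, since against cohort B alone the difference was 0.48 (adjusted p = 0.385), and it was lost in 14 of 17 fits that left out a library, with adjusted p up to 0.123 without BLT1.KO MC903 1.

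No member passed for anti-Gr1 in skin in edgeR (2 at an unadjusted p under 0.05, 0 in DESeq2, all genes 4.56%) or for TSLPR.KO in skin (1 and 0, all genes 0.177%). For Artn the difference was -0.34 (95% confidence interval -1.90 to 1.22, adjusted p = 0.859) with anti-Gr1, 0.30 (95% confidence interval -1.60 to 2.20, adjusted p = 0.932) in TSLPR.KO and -1.30 (95% confidence interval -3.16 to 0.56, adjusted p = 0.422) in BLT1.KO, and all 3 intervals span 0. For Ntrk3 it was -1.37 (95% confidence interval -2.65 to -0.08, adjusted p = 0.213) with anti-Gr1 and 1.32 (95% confidence interval 0.45 to 2.20, adjusted p = 0.222) in TSLPR.KO, opposite in sign. Bdnf in skin differed by 1.33 (95% confidence interval 0.32 to 2.35, adjusted p = 0.123) with anti-Gr1.

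In the TG no member passed for anti-Gr1 (2 at an unadjusted p under 0.05, 0 in DESeq2, all genes 0%) or for TSLPR.KO (1 and 0, all genes 0%). The response of Bdnf differed by -0.05 (95% confidence interval -0.68 to 0.57, adjusted p = 0.998) with anti-Gr1 and by -0.35 (95% confidence interval -1.05 to 0.34, adjusted p = 0.820) in TSLPR.KO. That of Ntrk3 differed by 0.56 (95% confidence interval 0.12 to 0.999, adjusted p = 0.470) in TSLPR.KO. TSLPR.KO ganglia held Ntrk3 at 63.3 and 65.01 cpm in ethanol and 106 and 67.95 cpm in MC903 libraries at Day_8. The higher of these, MC903 1, stood apart with 13.19% ambiguous reads and 19.03% in no gene, against 2.32 to 2.40% and 11.82 to 12.61% in the other 3 libraries. Without it the difference of Ntrk3 was 0.20, and with it as the lone MC903 library 0.87 (adjusted p = 0.0350).

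Other ligands of both families described here are Ntf5, which encodes the TrkB ligand NT-4, Nrtn, Pspn and Gdf15. Gdf15, a ligand of the Ret co-receptor GFRAL, rose in 6 of 9 skin comparisons, by 2.05 in BLT1.KO to 4.98 with PBS. Pspn rose at Day_8 (1.78), and Nrtn fell at Day_1 (-1.07) and in BLT1.KO (-1.53). Of these 4 genes, 2 passed upward and 0 downward in skin at Day_8 (all genes 23.4%), and none passed in the TG. Ntf5 passed in no comparison, and Nrtn rose in uninjected cord (1.48).

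Of the 10 other receptors tested in skin, 1 rose and 4 fell at Day_8 (all genes 23.4% in either direction), 1 and 3 at Day_5 (all genes 14.9%), 2 and 3 with anti-Gr1 (all genes 32.6%), and 2 and 4 in BLT1.KO (all genes 28.6%). Ngfr, the p75 neurotrophin receptor, fell in 6 of 9 skin comparisons, by 1.01 in BLT1.KO to 1.38 in TSLPR.KO at Day_8 on the log2 scale. Sort1, which encodes the pro-neurotrophin receptor sortilin, fell at Day_8 (-0.80), with anti-Gr1 (-1.56) and in BLT1.KO (-0.89). Gfra4, the persephin co-receptor, rose at Day_8 (1.66), with anti-Gr1 (1.33) and in TSLPR.KO at Day_12 (0.92). Sorcs2 fell at Day_1 (-0.48) and rose in BLT1.KO (2.03). In the TG, Ngfr rose with PBS (0.45), and Sort1 (-0.35) and Sorcs1 (-0.38) fell with anti-Gr1. In cord Sort1 fell without injection (-0.47) and with anti-Gr1 (-0.31).

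Downstream of the receptors, 12 feedback genes of the ERK pathway, which Trk and Ret share with many other receptors, gave 7 calls upward and 1 downward both with anti-Gr1 (all genes 32.6%) and in BLT1.KO (all genes 28.6%), 4 and 1 at Day_5 (all genes 14.9%), and 1 and 2 at Day_8 (all genes 23.4%), a share near that of all genes. Their median log2 fold change was 0.80 at Day_5 and 0.82 in BLT1.KO, beside -0.03 and -0.04 for all genes. Dusp5 and Dusp6, phosphatases of the pathway, rose at Day_5 (2.10 and 1.38) and in BLT1.KO (3.01 and 2.32). The transcription factor gene Etv4 rose with anti-Gr1 (2.19), in BLT1.KO (2.78) and in TSLPR.KO at Day_12 (1.85). In the TG this list gave 1 call upward at Day_8 (all genes 0.16%), of Etv5 (0.48), and 4 upward and 1 downward with PBS (all genes 3.36%), among them Etv5 (0.62), Dusp6 (0.40), Spred3 (0.36) and Spry4 (0.34).

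Of 16 adaptors and enzymes below Trk and Ret, 15 were tested in skin at Day_5, where 3 passed upward and 0 downward (all genes 14.9%). At Day_8, 2 and 1 of 16 passed (all genes 23.4%), and with anti-Gr1 5 and 1 of 15 (all genes 32.6%). Shc1, an adaptor of Trk and Ret, rose at Day_5 (0.78), Day_8 (0.71), with anti-Gr1 (1.07) and in BLT1.KO (0.81). Dok5 fell at Day_8 (-0.95) and in BLT1.KO (-1.58), and Gab2 fell at Day_1 (-0.55) and rose at Day_8 (0.94). In the TG with PBS, Shc1 (0.40) and Dok4 (0.30) rose, and Sos1 (-0.27) and Kidins220 (-0.16) fell. Cord without injection (all genes 12.2%) had 3 adaptors higher, among them Sh2b2 (1.81) and Frs2 (0.28), and 2 lower, Gab1 (-0.87) and Kidins220 (-0.26).

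Of the 10 proteases tested in skin that can cut neurotrophin precursors, 5 rose and 3 fell at Day_8 (all genes 23.4%), and 3 rose and 0 fell at Day_5 (all genes 14.9%). Mmp3 fell at Day_1 (-1.07) and rose in the other 7 skin comparisons in which it passed, by 1.33 in TSLPR.KO at Day_12 to 2.96 with PBS. Mmp9, which neutrophils also carry, rose in 6 skin comparisons, by 1.31 in TSLPR.KO at Day_12 to 3.57 with PBS, and by 3.24 with anti-Gr1. Furin, the general proprotein convertase, rose at Day_8 (0.66) and in BLT1.KO (1.46), while Pcsk6 fell at Day_8 (-0.65). No protease passed in the TG.

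For members past the threshold in at least 2 comparisons of a tissue, the genes nearest in pattern were found by the mean absolute difference of log2 fold changes over all its comparisons. Nearest to Artn in skin (9 comparisons, 17629 genes) were Gm12606 (0.385), Trib3 (0.475) and Clec2f (0.476). To Ntrk2 the nearest were Jade1 (0.131), Mllt3 (0.138) and Dnajc28 (0.144), to Ntrk3 Pdcd4 (0.218), Lgals12 (0.250) and Gm11266 (0.268), and to Gfra3 Cpq (0.187), Hoxa2 (0.222) and Gm13219 (0.224). Bdnf in the TG (8 comparisons, 16936 genes) was nearest to Nptx2 (0.216), Adamts8 (0.230) and Tmem173 (0.245). Ntrk2 in cord (3 comparisons, 17449 genes) was nearest to Rwdd2a (0.0156), Srrm4os (0.0164) and Ifrd1 (0.0254).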

How the data were processed

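RNA was poly(A) selected from skin, trigeminal ganglion and spinal cord, and the deposited files hold raw read counts per Ensembl gene that the authors obtained by mapping to mm10 with Bowtie2 and TopHat and counting with HTSeq (names from the submitters' processing notes). The annotation release and the strand setting of the counting are not given in the sources used here. Reads in no gene were 6.15 to 21.54% and ambiguous reads 1.77 to 13.19% per library, and both were left out of library sizes. Counts were tested as deposited with edgeR 4.0.16 in R 4.3.3 (quasi-likelihood F test, TMM normalization, genes with 10 or more counts summed over the libraries of a comparison, Benjamini-Hochberg adjustment). Values in cpm (counts scaled to a common library total) are after TMM for members, Crlf2 and Ltb4r1 within a comparison. Levels across tissues, marker sums and the libraries in no comparison are scaled by the library total alone, as are Krt5, Tubb3 and Prph. Each of 20 comparisons was fitted on its own groups, and 5 tests of a difference from wild-type Day_8 and 4 contrasts between days were added in joint fits, the contrasts after the data were seen. Wild-type uninjected Day_8 skin and ganglion hold 2 sets of titles, bracketed (cohort A) and plain (cohort B), and carried a cohort term. DESeq2 1.42.0, other normalization, filters, a replicate block and leaving out each library were the alternatives. No pair among 218 of the same group agreed within sampling noise. The closest pair had a chi-square per degree of freedom of 2.53, beside a median of 41.1. Cohort A skin titles repeat a replicate number within a treatment (MC903 skin1 and skin4, ethanol skin3 and skin7), and a ganglion ethanol library is tagged TG6_7. All were counted as separate libraries, and the labels do not say whether they are separate animals. The scripts were tested on simulated data.

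Symbols and coordinates came from GENCODE on GRCm38, which matched 45143 of the 46078 identifiers. Bdnf overlaps an antisense gene by 896 bases, and without a strand setting their reads cannot be told apart. Depth was 15931871 to 67342879 counts per library (median 27640826). The members, pathway lists, marker lists and tests were chosen with earlier results of these data known. All members are described, with their calls in every comparison counted. From each pathway list up to 4 genes per tissue with the smallest p among calls are named, along with the label checks and the 3 genes nearest in pattern. A gene of the ligand list is not reported here. Replicate numbers were checked for pairing in 21 comparisons or cohorts by the correlation of same-numbered deviations (-0.60 to 0.64). In 2 of them, ganglion at wild-type Day_5 and TSLPR.KO Day_12, every correlation was above 0.1 over at least 3 pairs, and the blocked value is given where it changes a call. The 19 libraries left out are described with the results.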

Additional observations from a re-analysis of the deposited data

Results flagged for a closer look

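In 9 of 160 groups of 4 to 10 libraries, 1 library lay far from the others of its group, and chance alone gives about 1 in 20. In uninjected cord, the first ethanol library held Artn at 1.68 cpm (next 0.376), Gfra3 at 1.32 cpm (next 0.561) and Ntrk2 at 478 cpm (next 435), and the fourth MC903 library held Ntrk2 at 670.2 cpm (next 571). Artn in wild-type Day_8 ganglion was 0.142 cpm in MC903 TG2 (next 0.0349), near the floor of detection. Gfra3 was 46.99 cpm in the second anti-Gr1 ethanol ganglion (next 34.2). Ntf3 was 2.78 cpm in the third MC903 skin of TSLPR.KO at Day_12 (next 1.40), 2.10 cpm in MC903 skin2 of wild-type Day_8 (next 1.19), and 0.821 cpm in the first MC903 ganglion of TSLPR.KO at Day_12 (next 0.387).

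Responses differed between groups or days for these members, on the log2 scale. The response of Ret in skin was higher in BLT1.KO than in wild-type mice at Day_8 by 1.03. Against cohort B alone it was 0.48 (adjusted p = 0.385) and did not pass. Between Day_8 and Day_1 the skin response differed by 3.66 for Artn, 1.37 for Gdnf, -1.52 for Ntrk3 and -1.14 for Ret. With cohort B alone at Day_8, these were 3.84 (adjusted p = 0.0136), 0.36 (adjusted p = 0.709), -1.01 (adjusted p = 0.278) and -0.57 (adjusted p = 0.315), so those of Gdnf, Ntrk3 and Ret did not pass without cohort A. In the ganglion the response of Bdnf differed by 2.01 between Day_5 and Day_1. Without the Day_1 MC903 libraries 1 and 2, which held less neuronal RNA, the Day_1 log2 fold change was -0.04, and the contrast was not refitted without them.

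The skin library of Day_2 labelled MC903 replicate 3, which is in no comparison, held Bdnf at 24.01 cpm, Ntrk3 at 31.96 cpm, Ret at 232.8 cpm and Gfra3 at 27.8 cpm. Scaled in the same way, by library total alone, the ethanol skin libraries of that day held Bdnf at 1.94 to 2.51 cpm, Ntrk3 at 5.26 to 8.27 cpm, Ret at 18.1 to 23.1 cpm and Gfra3 at 5.81 to 7.31 cpm.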

How the results depend on the processing

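Over 2855 alternative values of 196 member results (differences between days apart), 2645 kept direction and side of the threshold, 63 lost a call, 31 gained 1, and 0 called values turned sign. The others changed sign without passing either way. DESeq2 size factors, edgeR's own expression filter, PBS-injected in place of uninjected controls, and leaving out the cohort term changed no member's call. Members past the threshold in skin at Day_2 went from 0 to 1 under DESeq2, the filter of 1 count, the replicate block and 1 fit over days. In the Day_5 ganglion they went from 0 to 1 under the same alternatives. They went from 1 to 2 under DESeq2 in the anti-Gr1 ganglion, and from 0 to 1 under the filter of 1 count and the block in the TSLPR.KO Day_8 ganglion. Cohort B alone gave 2 in place of 4 in Day_8 skin and 0 in place of 1 in the Day_8 ganglion, and it and the filter of 1 count gave 0 in place of 1 for the difference of BLT1.KO. The block, which elsewhere rests on shared numbers only, gave 0 in place of 2 in TSLPR.KO Day_12 skin, 2 in place of 1 in TSLPR.KO Day_12 ganglion and 1 in place of 2 in anti-Gr1 cord, and changed no other count by over 1.5 times. It lost 4 calls: Artn (adjusted p = 0.103) and Ntrk2 (0.0851) in TSLPR.KO Day_12 skin, Bdnf in anti-Gr1 cord (0.104) and Gfra3 in anti-Gr1 skin (0.0675). It gained 6: Artn in Day_2 skin (0.0140), Ntrk3 in Day_5 skin (0.0461), Bdnf in Day_5 ganglion (0.00177) and TSLPR.KO Day_8 ganglion (0.0346), Ntrk2 in PBS ganglion (0.0244) and Gfra3 in TSLPR.KO Day_12 ganglion (0.0522). Crossing the numbers in PBS cord called 0 members and 955 genes, against 0 genes without a block. Except where the setting itself removes libraries or genes, the cause of these shifts was not tested.

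Leaving out a library gave 1 to 4 members in skin at Day_1, 0 to 1 with PBS, 2 to 4 with anti-Gr1, 0 to 1 in TSLPR.KO Day_8 and 1 to 3 in BLT1.KO. In the ganglion it gave 0 to 1 at Day_2, 0 to 1 at Day_5 and 1 to 3 with PBS, in anti-Gr1 cord 1 to 2, and for the differences of BLT1.KO in skin and TSLPR.KO in ganglion 0 to 1. A lone library left in a group was assumed to vary like the others.

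Genes called among all tested differed by over 1.5 times between alternatives (libraries all kept) in these comparisons. In skin they were 3213 (1046 to 4386) at Day_1, 60 (0 to 793) at Day_2, 3617 (3484 to 5604) at Day_5, 6125 (2258 to 7472) at Day_8, 973 (641 to 2116) with PBS, 594 (557 to 1401) in TSLPR.KO Day_8 and 2550 (548 to 4040) at Day_12. In the ganglion they were 0 (0 to 78) at Day_1, 0 (0 to 177) at Day_2, 2 (0 to 54) at Day_5, 41 (1 to 493) at Day_8, 796 (790 to 3479) with PBS, 456 (454 to 887) with anti-Gr1, 0 (0 to 1063) in TSLPR.KO Day_8 and 79 (79 to 356) at Day_12. In cord they were 3118 (1747 to 4280), 0 (0 to 955) with PBS and 3132 (1993 to 3741) with anti-Gr1. For differences from wild-type Day_8 they were 1269 (62 to 2515) for anti-Gr1, 48 (5 to 559) for TSLPR.KO and 1924 (1010 to 3155) for BLT1.KO in skin, and 0 (0 to 30) and 0 (0 to 794) for anti-Gr1 and TSLPR.KO in ganglion. Leaving out 1 library moved these counts further: in skin to 1304 to 5092 at Day_1, 43 to 3207 at Day_2, 1677 to 4907 at Day_5, 101 to 2172 with PBS, 179 to 822 in TSLPR.KO Day_8 and 1197 to 3603 at Day_12, in the ganglion to 0 to 4899 at Day_2, 0 to 33 at Day_5, 5 to 71 at Day_8, 246 to 3602 with PBS, 161 to 463 with anti-Gr1, 0 to 832 in TSLPR.KO Day_8 and 31 to 95 at Day_12, and in cord to 1887 to 4960 without injection and 93 to 6075 with PBS. For the differences it gave 621 to 2353 for anti-Gr1, 1 to 87 for TSLPR.KO and 1227 to 2392 for BLT1.KO in skin, and 0 to 829 for TSLPR.KO in ganglion. Counts of a few reads per library limit Artn in ethanol skin and Artn, Gdnf and Ntf3 in ganglion.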
